A study of Mus musculus with 6 samples.

Results

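Basic helix-loop-helix (bHLH) factors that set lineage fates were examined for H3K27 acetylation (H3K27ac), a mark of active promoters and enhancers, in mouse embryonic stem cells (ESC). The set was a list of 37 genes, given by name, among 27706 annotated genes of which 21853 code for protein. All 37 were found in the annotation and all code for protein. They lie at 34 loci when members within 100 kb of each other are counted once. The list was divided by lineage into 14 neural genes, 3 Olig genes of the oligodendrocyte lineage and 5 muscle genes. It also held 8 genes of mesoderm and mesenchyme, 2 blood genes and 4 Hes genes. Atoh8 was kept apart because it acts in several tissues, while Neurog3 and Ptf1a, which act in the pancreas too, stayed neural.

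Most of these proteins activate transcription as dimers with the widely expressed E proteins and bind the E-box, a DNA element with the letters CANNTG. Forced expression of some, such as Myod1 or Neurog2, turns other cell types into muscle or neurons. Id proteins lack the basic DNA-binding region and hold E proteins away from DNA. Hes proteins are repressors. Several are switched on by Notch signalling through its DNA-binding partner RBPJ, and they recruit Groucho (Tle) corepressors at the N-box. In embryonic stem cells, promoters of many developmental regulators are rich in CpG and bound by Polycomb complexes, which methylate the same lysine of histone H3 that is acetylated in H3K27ac.

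The study profiled H3K27ac by chromatin immunoprecipitation and sequencing in E14 cells (E14Tg2A Rosa26-Cre Oct4-IRES-Puro), grown in N2B27 medium with LIF and the inhibitors PD0325901 and CT-99021, which hold the cells in a naive pluripotent state. Its 6 libraries comprised 2 controls given the solvent DMSO, 2 treated with 100 nM NVP-2, an inhibitor of the kinase CDK9, and 2 labelled as treated with 800 nM Actinomycin D, which blocks transcription by binding DNA, each for 120 min. The antibody was ab4729 from Abcam, and chromatin of the human line HEK293T was added to all libraries as a spike-in. All values below come from 1 list of 22973 peak positions that pools both controls, and the treated libraries were not analysed here.

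The list gives no height, score or read depth, so there is no replicate error and no test, and the intervals given are 95% Wilson intervals that cover counting error only. A promoter was called marked where at least 1 bp of a peak lay within 1 kb of the transcription start site (TSS), taken from the coding isoform that spans the most genomic sequence. By this measure 9 of 10 embryonic stem cell markers were marked, among them Pou5f1, Nanog and Sox2, and the exception was Esrrb. The Esrrb start taken here, of its isoform with the longest span, lay 33.7 kb from a peak, and its other isoforms were not examined. Of 5 markers per list, 2 were marked for primitive endoderm (Gata4 and Gata6), 1 for trophoblast (Eomes), 1 for fibroblasts (Pdgfrb) and 2 for neural progenitors (Sox1 and Nes). Intervals were 11.8 to 76.9% for 2 of 5 and 3.62 to 62.4% for 1 of 5. Both include the 48.8% of all protein-coding promoters that were marked, so these counts say little about other cell types. The peaks measure acetylation, not expression, and how far a marked promoter was transcribed was not measured in the list.

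Promoters of 6 members at the extremes of the set are shown first, because the results below turn on them. Hes1 had the widest peak at its start, and Twist1 one of the narrowest, which began downstream of the start. Twist2 and Myf6 were among the members farthest from any peak, and Hes7 and Nhlh1 lay just outside the promoter window. Each run is the 250 bases upstream of the TSS, read 5′ to 3′ in the direction of transcription from the RefSeq genome, build GRCm38.p6. Capitals mark E-boxes (CANNTG), N-boxes (CACNAG) and the RBPJ motif (TGGGAA), each on either strand.
Hes1 (chr16:30065090-30065339, plus strand): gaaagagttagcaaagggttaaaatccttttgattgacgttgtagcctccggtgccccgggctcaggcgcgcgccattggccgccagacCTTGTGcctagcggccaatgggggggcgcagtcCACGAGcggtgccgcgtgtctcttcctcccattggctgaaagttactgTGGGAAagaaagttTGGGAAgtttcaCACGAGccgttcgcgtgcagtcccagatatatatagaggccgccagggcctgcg
Twist1 (chr12:33957421-33957670, plus strand): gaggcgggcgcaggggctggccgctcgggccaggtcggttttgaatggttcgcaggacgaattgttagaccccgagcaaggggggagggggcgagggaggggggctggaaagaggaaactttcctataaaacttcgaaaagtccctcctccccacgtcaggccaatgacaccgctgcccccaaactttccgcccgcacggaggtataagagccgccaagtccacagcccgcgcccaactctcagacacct
Twist2 (chr1:91801211-91801460, plus strand): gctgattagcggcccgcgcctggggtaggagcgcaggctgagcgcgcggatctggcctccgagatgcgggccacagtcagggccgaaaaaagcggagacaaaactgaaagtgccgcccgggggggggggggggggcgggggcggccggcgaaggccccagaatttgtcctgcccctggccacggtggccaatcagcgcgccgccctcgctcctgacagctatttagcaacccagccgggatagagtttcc
Hes7 (chr11:69120154-69120403, plus strand): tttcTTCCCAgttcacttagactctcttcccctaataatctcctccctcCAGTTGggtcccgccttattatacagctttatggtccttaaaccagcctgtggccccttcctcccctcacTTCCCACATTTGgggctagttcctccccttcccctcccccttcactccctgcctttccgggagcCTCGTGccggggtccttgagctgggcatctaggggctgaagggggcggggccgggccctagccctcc
Nhlh1 (chr1:172057574-172057823, minus strand): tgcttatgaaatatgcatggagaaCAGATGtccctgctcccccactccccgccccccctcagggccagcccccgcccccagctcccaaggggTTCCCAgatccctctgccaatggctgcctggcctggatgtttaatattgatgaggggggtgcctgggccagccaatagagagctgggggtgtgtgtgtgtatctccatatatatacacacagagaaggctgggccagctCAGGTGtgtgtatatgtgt
Myf6 (chr10:107494738-107494987, minus strand): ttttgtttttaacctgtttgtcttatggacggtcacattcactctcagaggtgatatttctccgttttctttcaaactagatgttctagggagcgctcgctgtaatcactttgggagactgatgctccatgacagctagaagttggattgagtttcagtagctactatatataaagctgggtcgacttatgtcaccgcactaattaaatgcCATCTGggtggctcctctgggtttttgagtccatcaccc

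Among all protein-coding genes, 63.4% held an E-box in this window, 36.0% an N-box and 21.9% an RBPJ motif. The Hes1 window held 3 N-boxes, with first bases at positions -161, -128 and -54 counted back from the TSS, and 2 RBPJ motifs at -80 and -66, with no E-box. Windows with at least 2 RBPJ motifs made up 3.02% of coding genes. Hes7 also had 2 RBPJ motifs, 1 N-box and 2 E-boxes, and one of its E-boxes directly adjoins an RBPJ motif, so that their capitals run together. Nhlh1 had 2 E-boxes and 1 RBPJ motif, and Myf6 had 1 E-box. Neither Twist window held any of the 3 motifs, although both were dense in CpG, with 18 CpG in Twist1 and 23 in Twist2 against 2 in Nhlh1. A match describes letters and does not show that a factor was bound.

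Of the 37 members, 6 had a marked promoter (16.2%, interval 7.65 to 31.1), while 48.8% of all protein-coding promoters were marked. The marked members were Hes1, Hes6, Bhlhe22, Atoh8, Msc and Twist1. Without the Hes genes the count was 4 of 33 (12.1%, interval 4.82 to 27.3). By lineage, 1 of 14 neural, 1 of 5 muscle, 1 of 8 mesoderm and 2 of 4 Hes genes were marked. The neural count leaves out the marked gene Atoh8. None of the 3 Olig genes and neither of the blood genes was marked, counts so small that their intervals reach 56.1% and 65.8%. Counting every annotated coding isoform added no member. The TSS base itself lay inside a peak for 3 members, Msc, Hes1 and Hes6, against 44.2% of protein-coding genes.

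**Figure D1:**
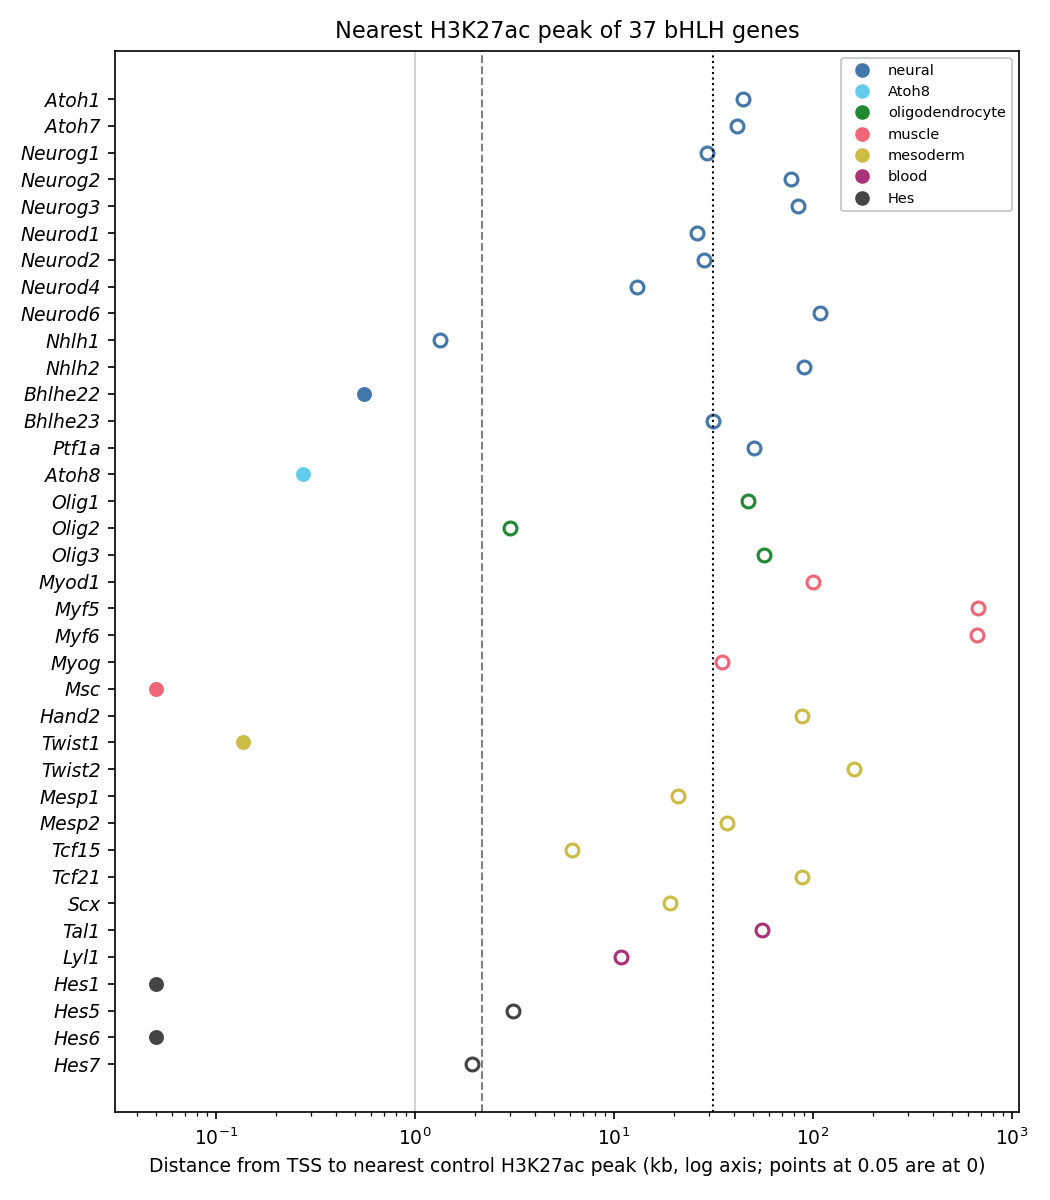
Distance in kb from the TSS of each of the 37 genes to the edge of the nearest control H3K27ac peak, on a log axis, with filled points for marked promoters and open points for unmarked ones, coloured by lineage group. The solid line is the 1 kb window, the dashed line the median of protein-coding genes (2.16 kb) and the dotted line the median of the members (31.5 kb), and points at the left edge have the TSS inside a peak. Only Hes1, Hes6, Msc, Twist1, Atoh8 and Bhlhe22 fall left of the window line, and Myf5 and Myf6 sit farthest right.

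The median distance from TSS to nearest peak was 31.5 kb over the members (quartiles 3.12 and 77.3 kb) and 2.16 kb over all protein-coding genes (quartiles 0 and 63.0 kb). The coding median is sensitive to the definition, at 0 kb from the gene body, 0.214 kb over all isoforms and 8.63 kb to peaks at least 1 kb wide, while that of members was 29.0, 31.5 and 37.9 kb. The order was different among unmarked genes alone. Their median was 41.7 kb for the 31 unmarked members and 60.3 kb for unmarked protein-coding genes. Of those 31 members, 5 had a peak within 10 kb, 13 between 10 and 50 kb, and 13 beyond 50 kb, 5 of them beyond 100 kb. A peak lay within 2 kb of 8 members (21.6%) against 49.9% of protein-coding genes, within 5 kb of 10 of the 37 members against 52.6%, and within 10 kb of 11 (29.7%) against 56.5%. It lay within 25 kb of 15 members (40.5%) against 64.5%, and within 100 kb of 32 members (86.5%) against 80.4%. The members thus fell below all coding genes up to 50 kb and above them at 100 kb.

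**Figure D2:**
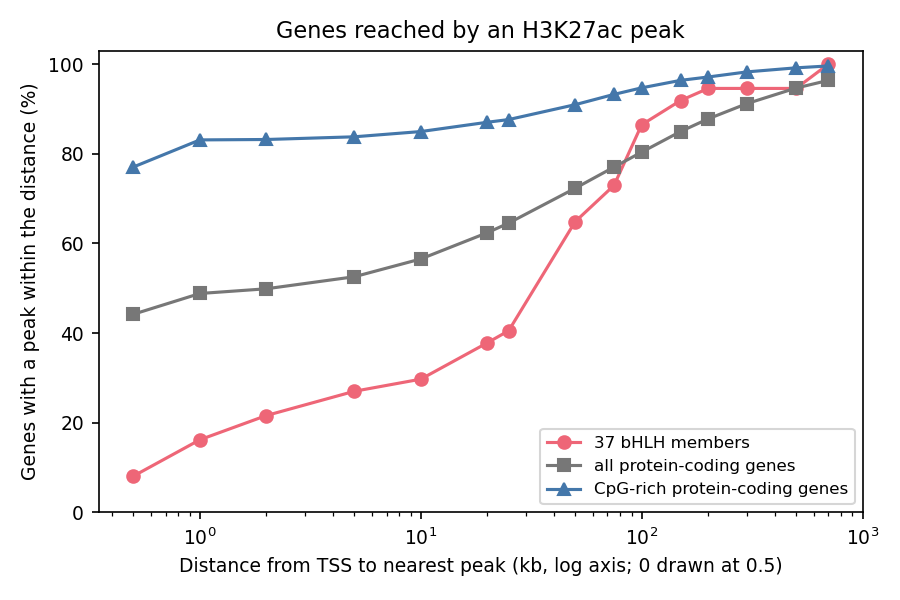
Cumulative share of genes (%) with a control H3K27ac peak within a given distance of the TSS (kb, log axis), for the 37 members, all 21853 protein-coding genes and the 6655 protein-coding genes with CpG-rich promoters. The member curve starts lowest, at 16.2% by 1 kb, and crosses that of all protein-coding genes between 50 kb (64.9% against 72.3%) and 100 kb (86.5% against 80.4%).

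Among the 6 marked promoters, the widest peaks lay at Hes1 and Hes6, but only that of Hes1 exceeded the median width of peaks at coding promoters. Of peaks at coding promoters, 22.8% were as narrow as that of Hes6 and 19.5% as narrow as that of Bhlhe22. Hes1 (ENSMUSG00000022528.8), a Notch effector that oscillates in progenitor cells, lay wholly inside a peak of 12402 bp at chr16:30058901-30071302, from position -6439 to 5962 relative to its start at 30065340 on the plus strand. That peak was at least as wide as 93.3% of the 9194 peaks at coding promoters, whose median width was 2049 bp. Hes6 (ENSMUSG00000067071.8), which antagonises Hes1 and promotes neuronal differentiation, had a peak of 1422 bp at chr1:91412367-91413788 over its start at 91413222 on the minus strand. It ran from position -566 to 855 relative to the start, over 451 bp of exon and 971 bp outside the exons of the coding isoform.

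The other 2 Hes genes were unmarked but close to peaks. Hes7, a component of the somite segmentation clock, had its nearest peak 1925 bp downstream, at chr11:69122329-69126281. This peak of 3953 bp covered the last 1727 bp of Hes7 and also the promoters of Aloxe3 and 9130213A22Rik, so it cannot be assigned to one of them from position alone. Hes5, a Notch effector of neural progenitors, had its nearest peak 3122 bp downstream, at chr4:154964045-154965218, which marked the promoter of the neighbouring gene Pank4. The Hes group thus had a median distance of 0.963 kb, the shortest of the groups with more than 1 member.

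The other 4 marked members had peaks at most 1315 bp wide, and in 3 of them the peak began downstream of the start. Twist1 (ENSMUSG00000035799.6), a regulator of mesenchyme and cranial bone, had a peak of 476 bp at chr12:33957807-33958282, from 136 to 611 bp into the gene, all of it in exon and 305 bp of it coding. Atoh8 (ENSMUSG00000037621.8) had a peak of 469 bp at chr6:72234835-72235303, from 274 to 742 bp downstream of its start on the minus strand, all in exon with 330 bp coding. Only 2.03% and 1.94% of peaks at coding promoters were as narrow as these. Both peaks were rich in G and C, at 79.8% for Twist1 and 67.4% for Atoh8, against a median of 53.5% over peaks at coding promoters. The peaks of Bhlhe22 (68.8%), Msc (66.3%) and Hes6 (64.8%) were also rich in them, and that of Hes1 (53.8%) was near the median.

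Bhlhe22 (ENSMUSG00000025128.7), a repressor in cortical and retinal neurons, carried a peak of 1315 bp at chr3:18054726-18056040. It lay entirely in exon, from 552 to 1866 bp downstream of the start at 18054174, and 1065 bp of it was coding. Bhlhe22 was the marked member nearest to the window's edge, with 449 bp of its peak inside. Just outside the edge were Nhlh1 at 1339 bp and Hes7 at 1925 bp. Msc (ENSMUSG00000025930.6), or musculin, a repressor in the muscle lineage, was the only one of these 4 whose peak covered the start. Its peak of 860 bp at chr1:14755269-14756128 ran from position -138 to 721 relative to the start at 14755990 on the minus strand. All of its 722 bp downstream of and including the start were in exon, 480 bp of them coding.

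Among the 14 neural genes only Bhlhe22 was marked, and the median distance to a peak was 36.6 kb. The proneural Neurog genes, which commit progenitors to a neuronal or, for Neurog3, a pancreatic endocrine fate, had their nearest peaks at 29.4 kb for Neurog1, 77.3 kb for Neurog2 and 83.8 kb for Neurog3. Those of the Neurod genes, which act later in neuronal differentiation, were at 13.1 kb for Neurod4, 26.2 kb for Neurod1, 28.2 kb for Neurod2 and 109 kb for Neurod6. None of these 7 genes had a peak within 10 kb, and for Neurog2, Neurod1 and Neurod2 the nearest peak lay at the promoter of another gene (Larp7 with Zgrf1, Cerkl, and Stard3).

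Distances were as long for the factors of sensory and cerebellar lineages. Atoh1, needed for inner ear hair cells and cerebellar granule cells, was 44.4 kb from a peak. Atoh7, needed for retinal ganglion cells, was 41.7 kb from one, and Ptf1a, which acts in the pancreas and in inhibitory neurons of the cerebellum, 50.7 kb. Bhlhe23 was 31.5 kb from a peak in Slc17a9. The neuronal pair Nhlh1 and Nhlh2 stood apart from each other. Nhlh2 was 89.9 kb from a peak, but Nhlh1 had one 1339 bp upstream, at chr1:172058912-172066703. This peak of 7792 bp lay in the body of the neighbouring gene Ncstn, and 3 more peaks lay within 50 kb of Nhlh1.

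The 3 Olig genes, which specify motor neurons, oligodendrocytes and dorsal neural progenitors, were unmarked at their promoters. Olig2 had a peak of 2027 bp in the intergenic sequence 3014 bp upstream, at chr16:91220417-91222443. The same peak was the nearest to Olig1, 47.3 kb away, since the 2 genes start 44.3 kb apart. Olig3 was 57.1 kb from its nearest peak, which was also intergenic.

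Of all members, the myogenic factors Myf5 and Myf6 were the farthest from any peak. They start 8.60 kb apart on chromosome 10 and shared a nearest peak at 675 and 667 kb, at the promoter of Ppp1r12a. They lie in a stretch of 2154 kb without a peak, and 1024 protein-coding genes lie in stretches at least as long. Myod1, which can convert fibroblasts to muscle, was 100.5 kb from a peak in Sergef. Myog, which acts in terminal differentiation, was closer, at 34.9 kb from a peak in Ppfia4. Msc, the repressor of the group, was the only muscle gene with a peak within 10 kb.

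In mesoderm and mesenchyme, Twist1 was marked and its paralogue Twist2 was 160.0 kb from a peak, the longest distance outside the Myf5 and Myf6 locus. Hand2, needed in heart and limb, and Tcf21, of epicardium and visceral mesenchyme, were both 87.8 kb from a peak. Mesp1 and Mesp2, expressed in early cardiac and presomitic mesoderm, start 16.9 kb apart and had different nearest peaks, at 21006 and 37068 bp. Scx, a tendon factor, was 19007 bp from a peak. Tcf15, or paraxis, which is needed for somite epithelium, was the closest unmarked gene of the group, with an intergenic peak of 1084 bp lying 6154 bp downstream at chr2:152149715-152150798.

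The 2 blood factors, which act together in haematopoietic stem cells, differed in their surroundings. Tal1 was 55.4 kb from its nearest peak, at the promoter of Stil, within a stretch of 520 kb without a peak. Lyl1 was 10.8 kb from a peak of 13345 bp that lay over Nacc1 and Trmt1, and 5 peaks lay within 50 kb of it.

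The 31 unmarked members had 29 distinct nearest peaks, since Myf5 shared one with Myf6 and Olig1 with Olig2. The nearest peak lay at the promoter of another gene for 12 members, only in the body of another gene for 13 and between genes for 6. Hes7 was the only unmarked member whose nearest peak overlapped its own gene. Within 50 kb of the TSS, members had a median of 1 peak (range 0 to 7) and protein-coding genes a median of 2, but within 100 kb both medians were 3. No peak lay within 50 kb of 13 members (35.1%), against 27.7% of protein-coding genes. Total peak length within 50 kb was 37346 bp at Hes1, 27392 bp at Lyl1, 24306 bp at Tcf15 and 22453 bp at Nhlh1. The median over members was 1342 bp, and that over protein-coding genes 3714 bp. Members also had fewer coding neighbours, with a median of 1 other coding TSS within 50 kb against 2. How much the sparse neighbours account for the distances was not tested.

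**Figure D3:**
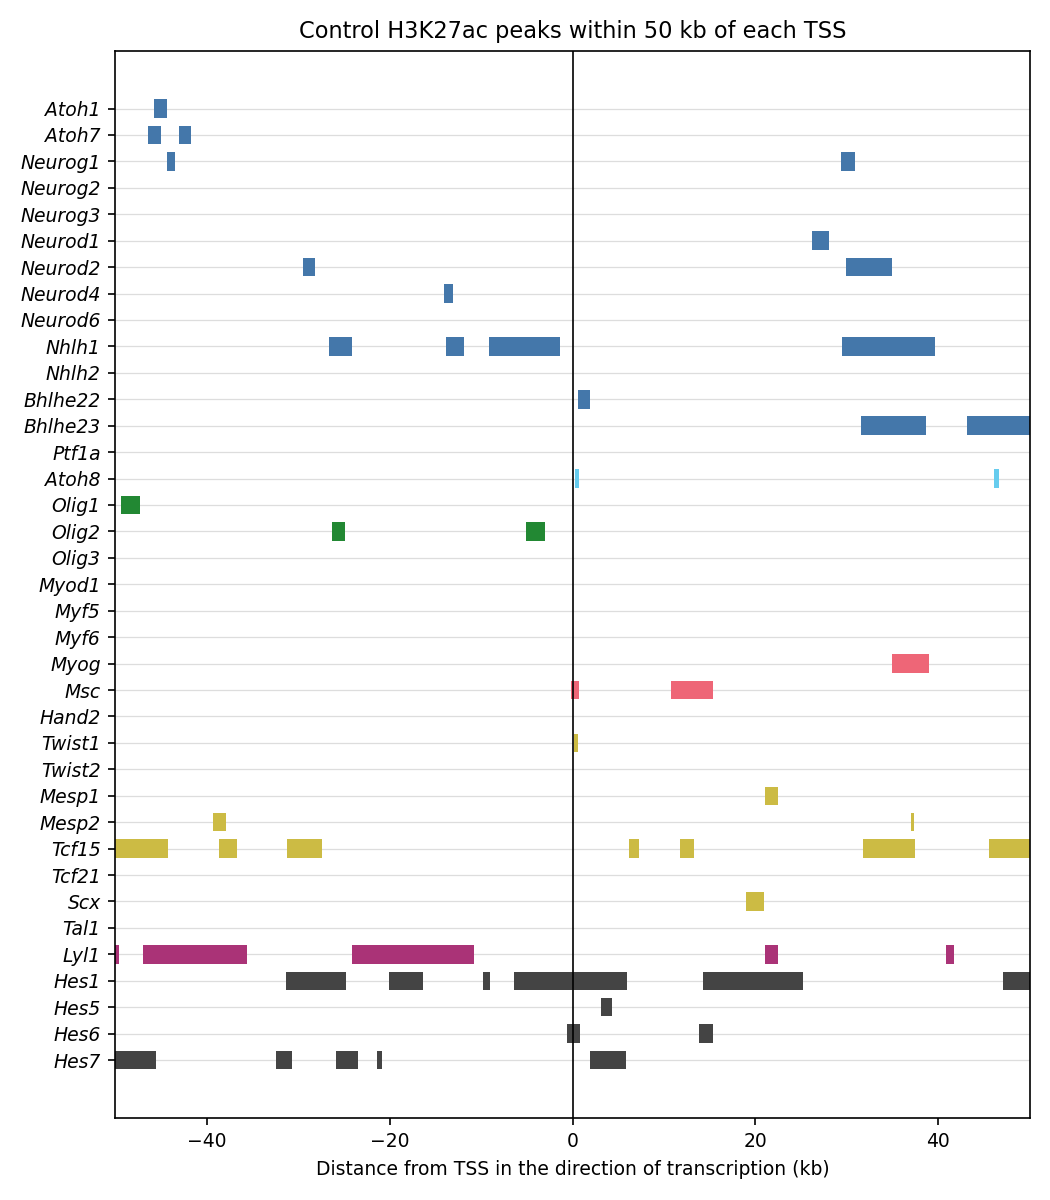
Control H3K27ac peaks within 50 kb of the TSS of each member, drawn to scale in kb with the direction of transcription to the right and the TSS at 0, where each bar is a peak and colours mark lineage groups. Peaks cover the starts of Hes1, Hes6 and Msc, and begin within 1 kb downstream of those of Twist1, Atoh8 and Bhlhe22. Tcf15 has 7 peaks and none over its start, and the rows of 13 members are empty.

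Promoter CpG content was compared next, since CpG-rich promoters are usually acetylated in these cells. The observed to expected CpG ratio within 1 kb of the TSS had a median of 0.595 over members (range 0.155 to 0.865), 0.641 over marked protein-coding promoters and 0.227 over unmarked ones. Marked members had a median of 0.732 and unmarked members 0.536. A promoter was called CpG-rich at a ratio of at least 0.6 with at least 50% G and C. Of 18 CpG-rich members 5 were marked (27.8%), whereas 83.1% of the 6655 CpG-rich protein-coding promoters were. With the TSS inside a peak these shares were 11.1% and 77.1%, and with peaks at least 1 kb wide they were 16.7% and 76.4%. Of the other 19 members 1 was marked, against 33.8% of the remaining protein-coding promoters.

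The 13 members that were CpG-rich and unmarked came from 5 of the groups. The highest ratios were those of Tcf15 (0.865), Neurog2 (0.860) and Hand2 (0.816), all above the 0.811 of the marked Twist1. Twist2 (0.722), Olig1 (0.724), Tal1 (0.724), Ptf1a (0.737) and Hes5 (0.711) were near the 0.734 of Hes1, which had the widest peak. Between ratios of 0.7 and 0.8, 3 of 10 members were marked, against 84.5% of protein-coding promoters. At the other end, Nhlh1 (0.155), Neurod4 (0.187) and Neurod6 (0.274) had few CpG, as do most unmarked promoters. H3K27me3 and other marks of Polycomb were not measured in these libraries.

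**Figure D4:**
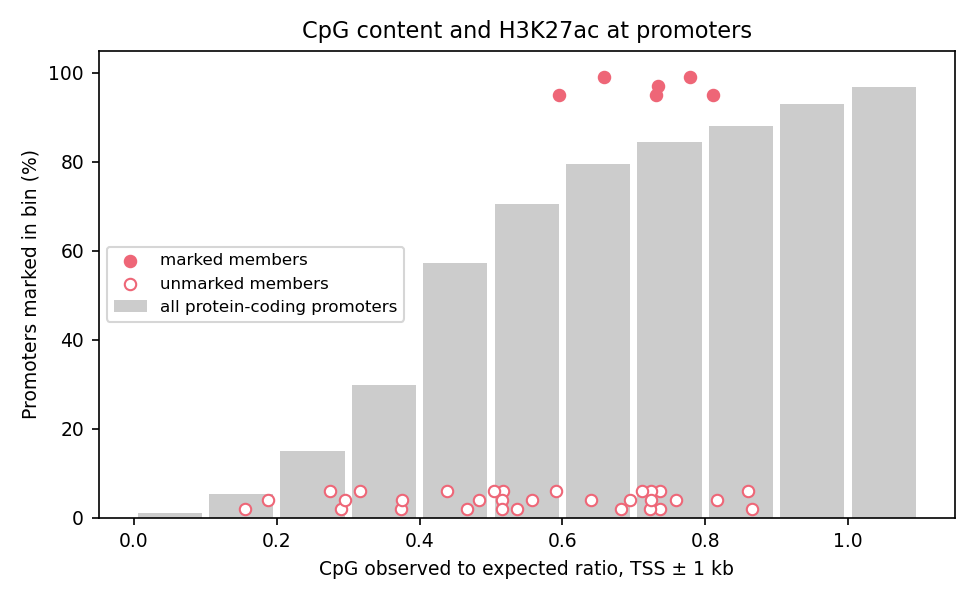
Share of protein-coding promoters marked (%, grey bars) by the observed to expected CpG ratio within 1 kb of the TSS, in bins of 0.1, with the members' ratios as points along the top where marked and along the bottom where unmarked, offset vertically only to keep them apart. The bars rise throughout, to 96.9% between 1.0 and 1.1. Between 0.7 and 0.8 the bar stands at 84.5%, and 3 of 10 members in that range were marked.

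Motifs upstream of the start were counted over all members in the same way. An E-box was present in 24 of 37 members against 63.4% of coding genes, and its form CACGTG in 2 (Neurod1 and Atoh8) against 6.59%. An N-box was present in 11 members against 36.0% of coding genes and an RBPJ motif in 12 against 21.9%. Besides Hes1 and Hes7, the members with 2 RBPJ motifs were Hes5, Nhlh2 and Bhlhe23, of which none was marked. Neurod6 had 3 N-boxes, as did Hes1, and Neurod4 had 2, and at least 2 were present in 7.71% of coding genes.

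Genes of the partners and regulators of these factors were counted in the same way, beside the 48.8% of all protein-coding promoters, and the differences were not tested. All 3 E protein genes, Tcf3, Tcf4 and Tcf12, were marked, with peaks of 7285, 4945 and 1748 bp. All 4 Id genes were marked, from 1816 bp at Id1 to 5896 bp at Id3. Of the 5 Groucho genes 4 were marked, the widest at Tle3 (20680 bp), and Tle2 lay 3.28 kb from a peak. Intervals were 43.9 to 100% for the E protein genes, 51.0 to 100% for the Id genes and 37.6 to 96.4% for the Groucho genes. Those of the E protein and Groucho genes include the 48.8%. CpG ratios were 0.567 to 0.595 for Id1 to Id3 and 0.888 for Id4, and 0.657 to 0.935 for the E protein genes.

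Of 13 genes of the Notch pathway, which acts upstream of several Hes genes, 7 promoters were marked (53.8%, interval 29.1 to 76.8), a share near the 48.8% of all protein-coding promoters. All 4 receptors were marked, Notch1 with the widest peak (11342 bp). Among the ligands, Jag1 was marked and Jag2, Dll1, Dll3 and Dll4 were not, with Dll1 at 64.6 kb from a peak. The coactivators Maml1 and Maml3 were marked and Maml2 was not. Rbpj was unmarked at the isoform with the longest genomic span, whose start lay 1.92 kb from a peak of 3077 bp. Counting any isoform, the isoform with the longest spliced length or a window of 2 kb gave 8 of 13 Notch genes (61.5%). Requiring the TSS inside a peak gave 6 of 13 (46.2%).

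Among closer relatives of the members the counts were also low. Of 6 further genes of the Hey and Hes family only Hey1 was marked, and Hey2, Heyl, Helt, Hes2 and Hes3 were not. Of 16 other tissue-restricted bHLH genes 3 were marked (18.8%, interval 6.59 to 43.0), namely Ascl4, Sohlh2 and Ascl2, the last by only 81 bp of overlap. Hand1, which acts in heart and placenta, was 12.3 kb from a peak, and the mesoderm factor Msgn1 6.68 kb. These lists hold few genes and their intervals are wide.

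**Figure D5:**
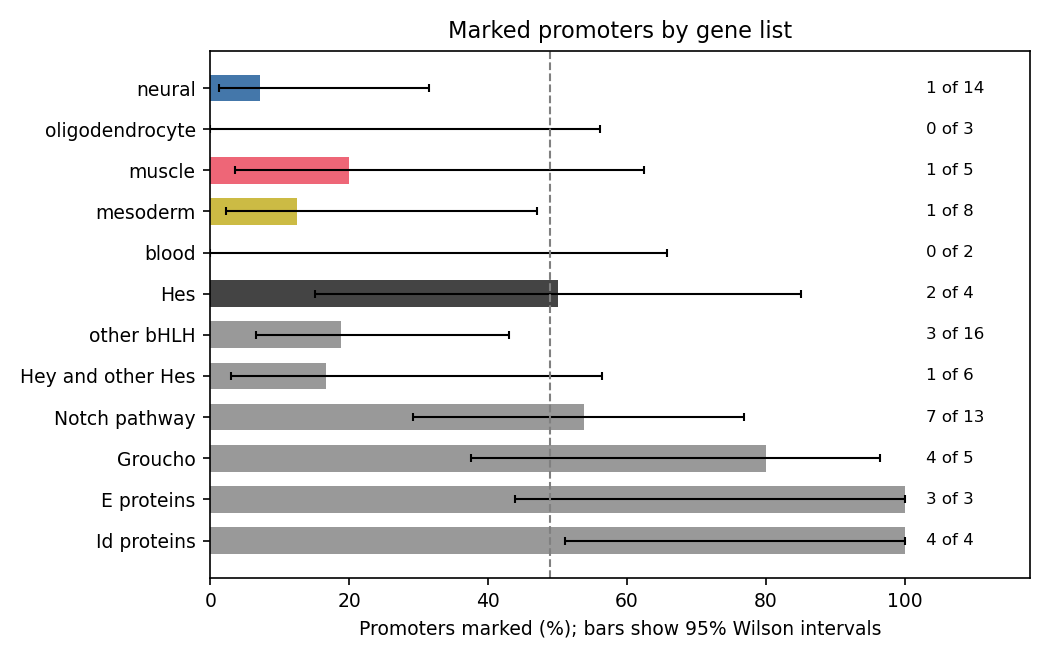
Share of promoters marked (%) in each lineage group of the members with more than 1 gene (coloured) and in each related list (grey), with counts at the right, whiskers for 95% Wilson intervals and a dashed line at the 48.8% of all protein-coding promoters. The neural group lies at 1 of 14, and the E protein and Id lists at 3 of 3 and 4 of 4.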

How the data were processed

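H3K27ac was profiled in mouse ESC in 3 groups of 2 libraries. The authors trimmed reads with Cutadapt, aligned them with bwa meme to combined mouse mm10 and human genomes, and removed duplicates with Picard 2.9.1 and reads of low mapping quality with SAMtools 1.4. They called peaks with LanceOtron, joined peaks within 2 kb, and dropped those with low height or without a nearby ATAC-seq summit. The deposited file is 1 list of peak coordinates pooled over the control replicates, with no signal, so precision per sample is unknown. The study reports read counts for each library, which differed between the 2 controls and were not used here. Merging can widen a peak, while the height filter can remove a weak one. Only the coordinates were used.

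Peaks were compared with GENCODE release M21 (GRCm38), an earlier release than the one named in the study's methods, for protein-coding and lincRNA genes. The TSS came from the isoform of those types that spans the most genomic sequence, a promoter was TSS ± 1 kb, and an overlap of 1 bp counted. Shares have 95% Wilson intervals. Sequences came from the RefSeq GRCm38.p6 genome. The RefSeq promoter table held 29 of the 37 members. E-box, N-box and RBPJ motifs were searched on both strands over 250 bases upstream, and overlapping matches were each counted. Members and lists were chosen with earlier results of these data known.

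All members are named, with coordinates for peaks of marked members and for peaks within 10 kb of unmarked ones. Promoters were shown for members with the widest and narrowest peaks and the nearest and farthest distances, from different lineages within the marked and within the unmarked members, passing over windows with more than 30 bases of a same-strand exon, a criterion added after the data were seen. A promoter chosen by this rule and some gene names are not reported here. The code was tested on simulated data. Versions were Python 3.11.15, scipy 1.17.1, numpy 2.4.6, matplotlib 3.10.9 and pandas 2.3.3. Alternatives changed the window, isoform, peak width, overlap, neighbouring genes and flank.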

Additional observations from a re-analysis of the deposited data

How the results depend on the processing

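The share of members marked ranged from 8.11% to 21.6% (window of 2 kb) over the alternatives run. The low value, 3 of 37, came with the TSS inside a peak, peaks at least 1 kb wide, or an overlap of at least 500 bp. All shares lay within the counting interval, which does not measure the effect of a changed definition. Calls of 6 single genes changed under at least 1 alternative. Excluding genes with another TSS within 2 kb, counted at 1 isoform of coding and lincRNA genes, removed no member. Leaving out genes near a gene start of any type, chosen after seeing the data, left 6 of 31 members (19.4%) and 40.6% of protein-coding promoters marked. Hes1 and Hes6 were marked under each. Nhlh1 and Hes7 became marked with the 2 kb window. Bhlhe22 lost its call with a window of 500 bp, with the TSS inside a peak and with an overlap of 500 bp, so the neural share was then 0%. Twist1 and Atoh8 lost theirs with the TSS inside a peak, with an overlap of 500 bp and with peaks at least 1 kb wide, which took the mesoderm share and Atoh8 to 0%, and Msc lost its call with peaks at least 1 kb wide, which took the muscle share to 0%. These losses follow from the positions and widths given in the report. The share of other bHLH genes was 6.25% with the TSS inside a peak.

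All protein-coding promoters were marked at 49.9% with a 2 kb window, 44.2% with the TSS inside a peak, 51.0% over any isoform, 47.4% with an overlap of 500 bp, 43.7% with peaks at least 1 kb wide and 43.4% among genes with no other TSS within 2 kb. Their median distance was 5.58 kb to the peak midpoint, 0.214 kb over all isoforms, 8.63 kb to peaks at least 1 kb wide and 0 kb from the gene body. With flanks of 100 kb the median number of peaks was 3 for members and 3 for protein-coding genes, and with 10 kb it was 1 for the latter. In alternatives chosen after seeing the data, CpG-rich members were marked at 11.1% with the TSS inside a peak, and CpG-rich protein-coding promoters at 77.1% so and at 76.4% with peaks at least 1 kb wide. Of 146 values for lists and medians, 28 moved.

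No paired analysis was possible because both controls were merged into 1 list of peaks, which also left no replicate to omit. The list does not hold the depth of either control, and acetylation below the authors' height filter is not in it.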

Other observations

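The position of the members' peaks in the deposited list was also read. What the order of the list stands for is not stated in the sources used here. The Hes1 peak was at line 112, earlier than all but 0.653% of the 9194 peaks at coding promoters. The other 5 marked members had peaks late in the list, at line 17139 for Hes6, 19275 for Msc, 22479 for Bhlhe22, 22841 for Atoh8 and 22899 for Twist1 of 22973, whereas the median over peaks at coding promoters was line 8374. The order of these 6 peaks by line was not their order by width, since the Atoh8 peak was narrower than that of Twist1 but came before it.

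Members were short genes, with a median span of 2713 bp against 17380 bp over protein-coding genes. Unmarked members lay in peak-free stretches with a median of 174 kb, against 301 kb for unmarked protein-coding genes. Outside the Myf5 and Myf6 locus the longest were those around Hand2 (857 kb), Tcf21 (618 kb) and Tal1 (520 kb). The nearest peak was downstream of the TSS for 20 members and upstream for 14.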
